A study of Rattus norvegicus with 6 samples.

Results

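The S100 genes encode small calcium-binding proteins, and they were described here in the lumbar spinal cord of rats with bone cancer pain (BCP). The members were the 10 rows of the deposited gene table whose symbol was S100a1, S100a4, S100a6, S100a8, S100a9, S100a10, S100a11, S100a13, S100a16 or S100b, of 30957 rows in all and of 16 rows with a symbol of the family. Adult female Wistar rats had received Walker 256 cells, a rat mammary carcinoma line, in the marrow cavity of the left tibia, and sham-operated rats had received the same cells after killing by heat, so that both groups shared the operation and the cell material. On day 14 the side of the lumbar enlargement facing the injected leg was taken without its meninges. Then rRNA-depleted total RNA was sequenced in strand-specific libraries, 3 of sham-operated and 3 of BCP rats. The labels do not say that each library came from a separate animal, so p-values measure only the spread between these samples.

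An S100 protein carries a pair of EF hands, the helix-loop-helix motifs that hold calcium, and usually works as a dimer that exposes a binding surface for target proteins when calcium rises. Inside the cell, S100 proteins act on the cytoskeleton, annexins, calcium channels and transcription factors. Some leave the cell and act as alarm signals at the receptors RAGE (gene Ager) and TLR4, and S100b is in wide use as a marker of astrocytes.

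Gene counts per library summed to between 11779485 and 15004290. Of all genes 14908 passed the filter on low counts and were tested, of which 2352 rose and 1805 fell (2673 and 1257 when counts were scaled by library size alone). Replicates of a group differed by more than counting noise in every pair, and the labels name no batch. In all statements below, "rose" and "fell" mean an adjusted p-value under 0.05 in edgeR's quasi-likelihood test with Benjamini-Hochberg adjustment over all tested genes, fold changes are BCP over sham, CPM is counts per 1000000 after TMM scaling, and errors are SD over 3 libraries unless given as SE.

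In BCP rats S100a4, S100a6, S100a8, S100a11 and S100a16 rose, and S100a1 and S100b fell. Among the members 9 were tested, 5 rose and 2 fell, against 15.8% of all tested genes that rose and 12.1% that fell. The rises of 4 members, S100a4, S100a6, S100a8 and S100a11, were also larger than 2-fold, which held for 6.35% of all tested genes. No fall among the members was that large, and only 0.107% of the tested genes fell by so much. Over the 9 tested members the median log2 fold change was 0.31, beside -0.01 over all tested genes. S100a8 passed the filter only through its BCP libraries, S100a9 did not pass it, and S100a10 and S100a13 were tested without passing the threshold. In 6 members, S100a9 included, every BCP library lay above every sham library, and in 2 every BCP library lay below, where 21.7% and 19.8% of the tested genes were separated in these directions.

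**Figure D1:**
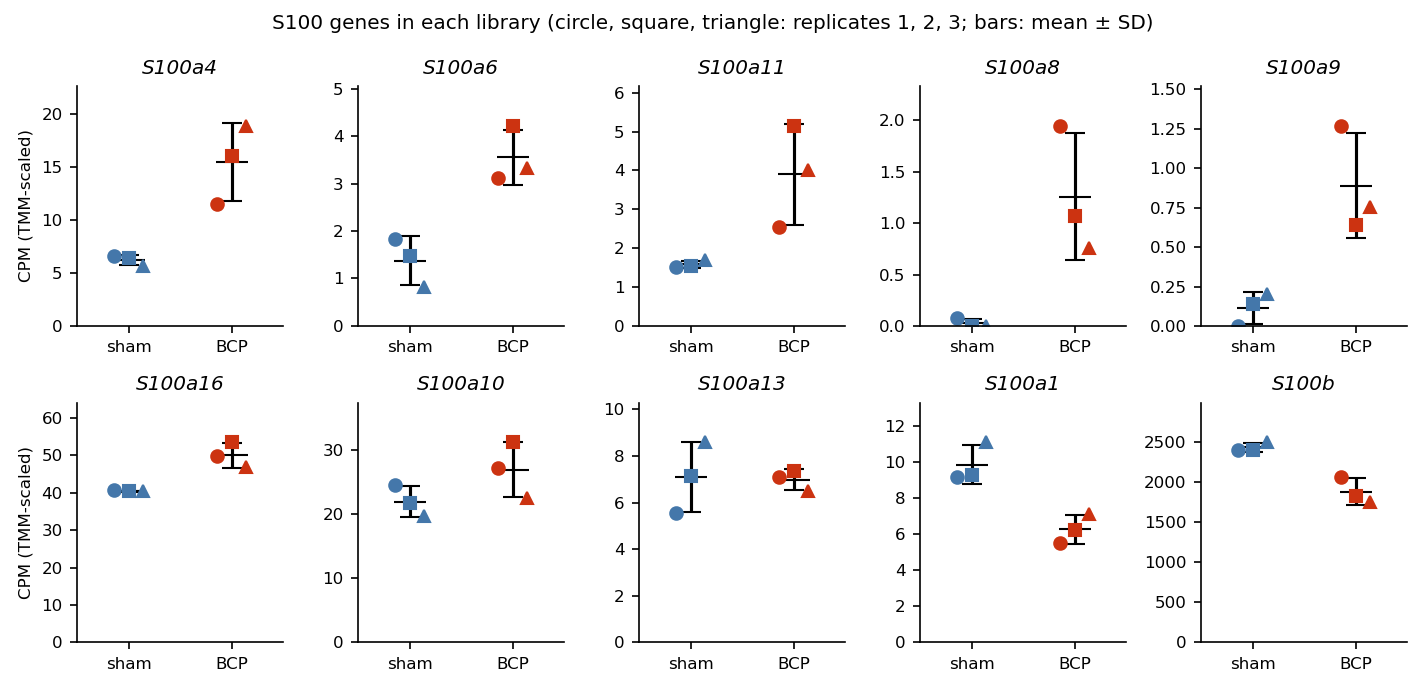
TMM-scaled CPM of each of the 10 S100 genes (vertical axes, linear from 0, each panel with its own scale) in 3 sham (blue) and 3 BCP (red) libraries, with the mean and SD as bars. S100a4, S100a6, S100a11, S100a8, S100a9 and S100a16 have all BCP points above all sham points, S100a1 and S100b have them below, and S100a10 and S100a13 overlap.

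S100a4, known as metastasin and a regulator of nonmuscle myosin and cell motility, had 86, 92 and 84 counts in sham-operated and 136, 224 and 249 counts in BCP rats. After scaling the sham libraries lay between 5.68 and 6.56 CPM and the BCP libraries between 11.5 and 18.9 CPM. The groups did not overlap, and the BCP libraries were spread more widely than the sham libraries. Its mean was 6.22 ± 0.476 CPM in sham and 15.5 ± 3.71 CPM in BCP rats, a log2 fold change of 1.32 (SE 0.17, 95% confidence interval 0.96 to 1.67) with an adjusted p of 7.34e-06 in edgeR's quasi-likelihood test. S100a4 thus rose 2.49-fold.

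S100a6, or calcyclin, binds the ubiquitin ligase adaptor Cacybp and marks many proliferating and mesenchymal cells. It was at 1.83, 1.47 and 0.811 CPM in sham and at 3.13, 4.22 and 3.33 CPM in BCP libraries, without overlap. These values rested on 12 to 24 counts in sham and 37 to 59 in BCP libraries. The log2 fold change of S100a6 was 1.39 (SE 0.30, interval 0.77 to 2.01, adjusted p = 0.00125 with edgeR), or 2.62-fold.

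S100a11, or calgizzarin, is a partner of annexin A1 that takes part in membrane repair and growth control. It was at 1.53, 1.54 and 1.69 CPM in the sham libraries and at 2.54, 5.15 and 4.01 CPM in the BCP libraries. The sham libraries lay close together, and even the lowest BCP library was above them. With 20 to 25 counts in sham and 30 to 72 in BCP libraries, the log2 fold change was 1.31 (SE 0.28, interval 0.71 to 1.90, adjusted p = 0.00144 with edgeR), or 2.47-fold. For S100a4, S100a6 and S100a11 alike, the lowest BCP value was that of BCP library 1.

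S100a8 and S100a9 form calprotectin, the calcium- and zinc-binding complex that fills the cytoplasm of neutrophils and is also made by monocytes. S100a8 was counted 1, 0 and 0 times in the sham and 23, 15 and 10 times in the BCP libraries. For S100a9 the counts were 0, 2 and 3 in sham-operated and 15, 9 and 10 in BCP rats. Both genes were near 0 in sham-operated rats and low but present in all BCP libraries, with the highest value in BCP library 1. The summed counts of S100a8 were 1 and 48, a ratio of 51.9 after TMM scaling, with a 95% exact counting interval of 8.89 to 2094. For S100a9 the sums were 5 and 34, a ratio of 7.36 (2.86 to 24.1). These intervals cover counting error only. The fitted log2 fold change of S100a8 was 5.24 (SE 0.83, adjusted p = 6.20e-05 with edgeR), a value that depends on the prior count because the sham libraries were at or near 0, and that was 7.09 without sham library 1, the only sham library with a count. S100a9 did not pass the filter, and without a filter its log2 fold change was 2.80 (SE 0.69, adjusted p = 0.00309 with edgeR).

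The neutrophil markers were examined beside calprotectin. All 14 listed genes were in the table, of which 2 were tested and 1, the receptor gene Csf3r, rose, from 9.01 ± 0.977 to 28.4 ± 4.12 CPM (log2 fold change 1.66, SE 0.12). The summed level of the list was 10.5 to 13.6 CPM in sham and 39.5 to 40.0 CPM in BCP libraries. Without Csf3r and Lcn2, which sham cord also expressed, it was 0.698 to 1.76 and 2.50 to 6.43 CPM. The collagenase gene Mmp8 had 2, 0 and 2 counts in sham and 24, 18 and 5 in BCP libraries. The chemokine receptor gene Cxcr2 had 0, 0 and 1 against 11, 4 and 6 counts, and the granule gene Ngp had 0, 0 and 2 against 10, 4 and 3. Prtn3, a granule protease gene, went the other way, with 4, 5 and 6 counts in sham and 1, 2 and 4 in BCP libraries. Mmp8, Cxcr2 and Ngp, like S100a8 and S100a9, were highest in BCP library 1, and so were Lcn2, Mpo, Camp, Elane and Fpr1. Other listed genes ordered the BCP libraries differently. Csf3r was lowest in BCP library 1, at 23.8 CPM against 29.4 and 31.9 CPM. Among the BCP libraries Mmp9 was highest in library 2, and Retnlg and Prtn3 were highest in library 3. Elane and Fpr1 had no counts in sham, Ctsg none in BCP, and Ltf none in any library. A gene listed at 0 in every library need not lack RNA, since genes of most cell types, such as Myh9, were also listed at 0. Genes of red blood cells moved too: 6 of 6 tested rose, with summed levels of 251 to 268 CPM in sham and 483 to 699 CPM in BCP libraries. Among markers of monocytes and macrophages 3 of 8 tested rose, with sums of 352 to 377 and 543 to 608 CPM. The 3 were Fn1 (154 ± 7.54 to 236 ± 17.3 CPM), Plac8 (3.13 ± 1.89 to 99.0 ± 16.1 CPM) and Cd14. Vcan (192 ± 6.23 and 209 ± 19.3 CPM), F13a1, Mrc1, Cd163 and Lyve1 neither rose nor fell. Fn1 and Vcan had the highest sham levels in the list. Ccr2 was at 0 in sham with 1 count in each BCP library. The part of neutrophils, monocytes or blood in the values of S100a8 and S100a9 was not tested.

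**Figure D2:**
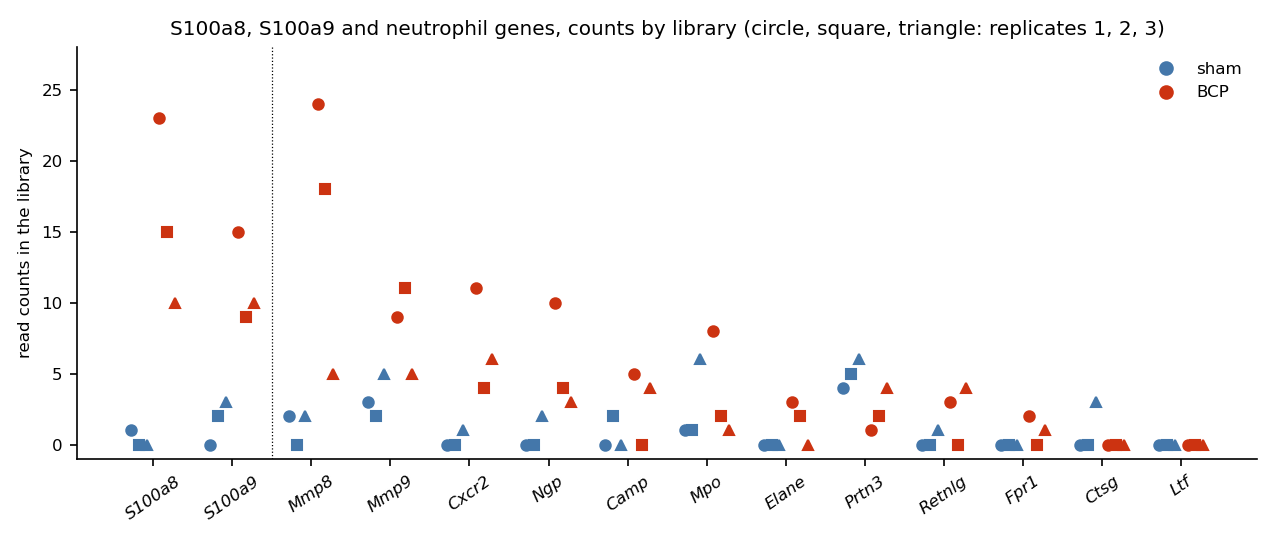
Counts of S100a8, S100a9 and neutrophil genes in the 3 sham (blue) and 3 BCP (red) libraries, as deposited and without scaling. S100a8 goes from at most 1 count in a sham library to between 10 and 23 in the BCP libraries. Mmp8, Cxcr2 and Ngp have low counts with their highest value in BCP library 1, while Mmp9 is highest in BCP library 2 and Retnlg in BCP library 3.

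Markers of resident and infiltrating cells also moved with the members. Of 14 tested microglial markers 9 rose and none fell (edgeR), with summed levels of 381 to 460 CPM in sham and 848 to 1001 CPM in BCP libraries and Siglech at 0. All 9 tested T cell markers rose, from sums of 2.44 to 3.66 CPM to 36.7 to 53.5 CPM, with Cd3d, Cd8b and Cd5 at 0 in sham, but 8 of the 9 passed the filter only through the BCP libraries. Meningeal and fibroblast markers, another known site of S100a4, S100a6 and S100a11, had sums of 204 to 240 and 208 to 270 CPM, with 0 of 10 tested rising, 1 falling, and Col1a2 and Ogn at 0. Pdgfra had the highest mean levels in that list, 99.0 ± 4.98 CPM in sham and 106 ± 5.31 CPM in BCP libraries. Col1a1 was at 84.1 CPM in BCP library 1, against 19.1 to 33.0 CPM in the other libraries. The endothelial list had 1 of 8 tested genes that rose and none that fell, at 488 to 509 and 534 to 560 CPM. The part of these cells in the rises of S100a4, S100a6 and S100a11 was not tested, and in bulk tissue a change in the number of cells of a type and a change in RNA per cell cannot be told apart.

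S100a16, a widely expressed member with a weak calcium affinity, was at 40.6, 40.3 and 40.4 CPM in sham and at 49.8, 53.4 and 46.7 CPM in BCP libraries. It rose by a log2 fold change of 0.31 (SE 0.07, interval 0.15 to 0.46, adjusted p = 0.00343 with edgeR), that is 1.24-fold, the smallest rise among the 5. The sham libraries were nearly equal, with an SD of 0.137 CPM.

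S100a10 differs from its relatives in having lost calcium binding, and with annexin A2 it forms a complex that brings ion channels to the cell surface and holds plasminogen there. It was at 24.5, 21.7 and 19.7 CPM in sham and at 27.1, 31.2 and 22.5 CPM in BCP libraries, and BCP library 3 lay within the sham range. The log2 fold change of S100a10 was 0.30 (SE 0.12, interval 0.05 to 0.54) with an adjusted p of 0.0674 in edgeR's quasi-likelihood test. S100a13, which takes part in the export of Fgf1 and interleukin 1 alpha without a signal peptide, was at 5.57, 7.12 and 8.58 CPM in sham and at 7.10, 7.36 and 6.51 CPM in BCP libraries. Its BCP libraries lay inside the sham range, and its log2 fold change was -0.03 (SE 0.18, interval -0.39 to 0.34, adjusted p = 0.937 with edgeR). A fall or a rise within that interval thus remained possible.

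S100a1, the form of heart and skeletal muscle that acts on ryanodine receptors and the calcium pump of the sarcoplasmic reticulum, was at 9.15, 9.29 and 11.1 CPM in sham and at 5.50, 6.22 and 7.12 CPM in BCP libraries. All BCP libraries were below all sham libraries. S100a1 fell by 0.65 on the log2 scale (SE 0.16, interval -0.98 to -0.31, adjusted p = 0.00429 with edgeR), a change of -36.1%.

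S100b, the glial member, had by far the most counts, 31487, 34445 and 36953 in sham and 24449, 25600 and 23082 in BCP libraries. In CPM these were 2401, 2406 and 2497 against 2067, 1829 and 1748. The groups did not overlap, and BCP library 1 was nearest to the sham libraries. The mean went from 2435 ± 54.0 to 1882 ± 166 CPM, and S100b fell by 0.37 on the log2 scale (SE 0.05, interval -0.48 to -0.26, adjusted p = 5.36e-05 with edgeR), a change of -22.7%.

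Glial markers fell beside S100b in part. Of 12 tested oligodendrocyte markers 11 fell, with sums of 41108 to 46581 CPM in sham and 29707 to 33011 CPM in BCP libraries and a median log2 fold change of -0.36. Of 12 tested astrocyte markers 6 fell and 1, Gfap, rose, at a log2 fold change of 0.80, and the list's median was -0.09. The astrocyte sums were 6362 to 6761 CPM in sham and 7952 to 9807 CPM in BCP libraries, the highest of them in BCP library 1, where Aqp4 alone was at 2415 CPM against 354 to 379 CPM in the other libraries. No astrocyte or oligodendrocyte marker listed was at 0. Schwann cell and nerve root markers, where S100b is also made, went from 277 to 283 CPM to 221 to 245 CPM in sum, with 1 of 8 tested rising and 1 falling. The part of these cells in the fall of S100b was not tested. For the remaining lists the calls were 0 rises and 6 falls of 11 tested neuronal genes (10019 to 10278 against 8499 to 9453 CPM), 0 and 3 of 6 dorsal root ganglion genes (218 to 244 against 163 to 199 CPM, Mrgprd at 0), and 0 and 1 of 6 ependymal genes (53.8 to 61.1 against 45.7 to 56.7 CPM).

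**Figure D3:**
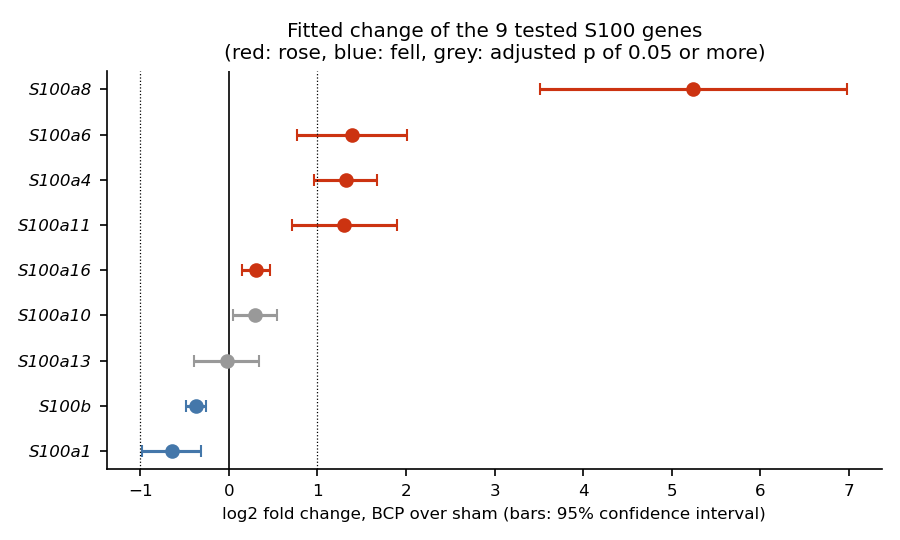
Log2 fold change, BCP over sham, of the 9 tested S100 genes, as points with 95% confidence intervals from edgeR's quasi-likelihood fit. The intervals of S100a4, S100a6, S100a8 and S100a11 lie well above 0, those of S100a1 and S100b lie below it, and that of S100a13, at -0.39 to 0.34, spans it.

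Levels between genes were compared on the authors' FPKM, which divides by gene length. In sham cord S100b was first at 1616 ± 38.2 FPKM, followed by S100a10 (37.7 ± 4.04), S100a16 (34.5 ± 0.0244) and S100a1 (34.0 ± 3.77). The ranges of S100a10, S100a16 and S100a1 overlapped. Below them stood S100a13 (14.4 ± 3.10), S100a4 (9.38 ± 0.704), S100a11 (5.25 ± 0.311) and S100a6 (2.86 ± 1.07), each clear of the next, and then S100a9 and S100a8, which were listed at 0 in 1 and 2 sham libraries. In BCP cord the order was S100b (1284 ± 103), S100a10 (47.6 ± 7.65) and S100a16 (43.8 ± 2.92), whose ranges overlapped, then S100a4 (24.0 ± 5.92) and S100a1 (22.3 ± 3.04). S100a4 thus stood above S100a13 in BCP cord and below it in sham cord, and its range in BCP cord overlapped that of S100a1. S100a13 (14.6 ± 0.880) overlapped S100a11 (13.3 ± 4.54), which overlapped S100a6 (7.64 ± 1.27), and S100a8 (3.37 ± 1.62) overlapped S100a9 (1.70 ± 0.623).

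The summed FPKM of the family was 1725, 1739 and 1800 in sham and 1564, 1449 and 1374 in BCP libraries. S100b supplied 92.0% to 92.2% of the sum in sham libraries and 86.5% to 89.4% in BCP libraries. Without S100b the sum of the other 9 members was 138, 137 and 140 FPKM in sham and 165, 196 and 174 FPKM in BCP libraries, so that the family's total and the total of its less abundant members lay on opposite sides in BCP libraries, without overlap in either.

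**Figure D4:**
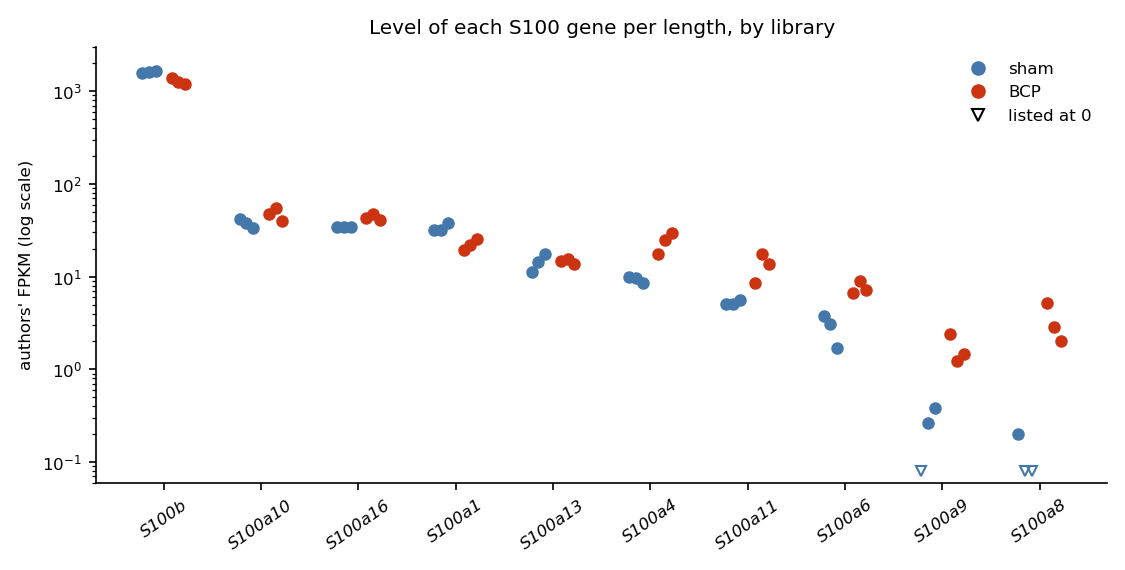
The authors' FPKM of the 10 S100 genes in each library on a logarithmic axis, sham in blue and BCP in red. S100b stands more than a decade above all others in both groups, at means of 1616 and 1284 FPKM, and S100a4, S100a6, S100a11, S100a8 and S100a9 shift upward in BCP.

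The other 6 rows of the family add little. S100a3, a member known from hair follicles, was tested on 7, 11 and 2 counts in sham and 12, 4 and 11 in BCP libraries, and its log2 fold change was 0.54 (SE 0.57, adjusted p = 0.537 with edgeR). S100a5 had 1 count in BCP library 3 alone. S100g, the intestinal calcium carrier calbindin, had 0, 0 and 2 counts in sham and 1, 0 and 1 in BCP libraries. The remaining 3 rows, S100a7a, S100vp and S100z, had no counts.

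Of the members 9 lie on rat chromosome 2 and S100b lies on chromosome 20. On the build of the files, Rnor_6.0, S100a1 (ENSRNOG00000012410, chr2:189900667-189903219), S100a13 (ENSRNOG00000012393, chr2:189906022-189912516), S100a16 (ENSRNOG00000012053, chr2:189922996-189928848), S100a4 (ENSRNOG00000011821, chr2:189997129-189999604), S100a6 (ENSRNOG00000011647, chr2:190007216-190008511), S100a8 (ENSRNOG00000011557, chr2:190073815-190074354) and S100a9 (ENSRNOG00000011483, chr2:190097554-190100276) stand in 1 run. S100a11 (ENSRNOG00000010105, chr2:193866951-193868502) and S100a10 (ENSRNOG00000023226, chr2:193892589-193901236) lie apart, 24.1 kb from each other. S100b (ENSRNOG00000001295) is at chr20:13130636-13142856. The members of the run did not move as 1 block. S100a1 at its first end fell, S100a13 did not pass the test, S100a16 rose 1.24-fold, and S100a4, S100a6 and S100a8 rose more than 2-fold. S100a11 and S100a10, neighbours elsewhere, differed in their calls, though the difference between them was not tested.

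**Figure D5:**
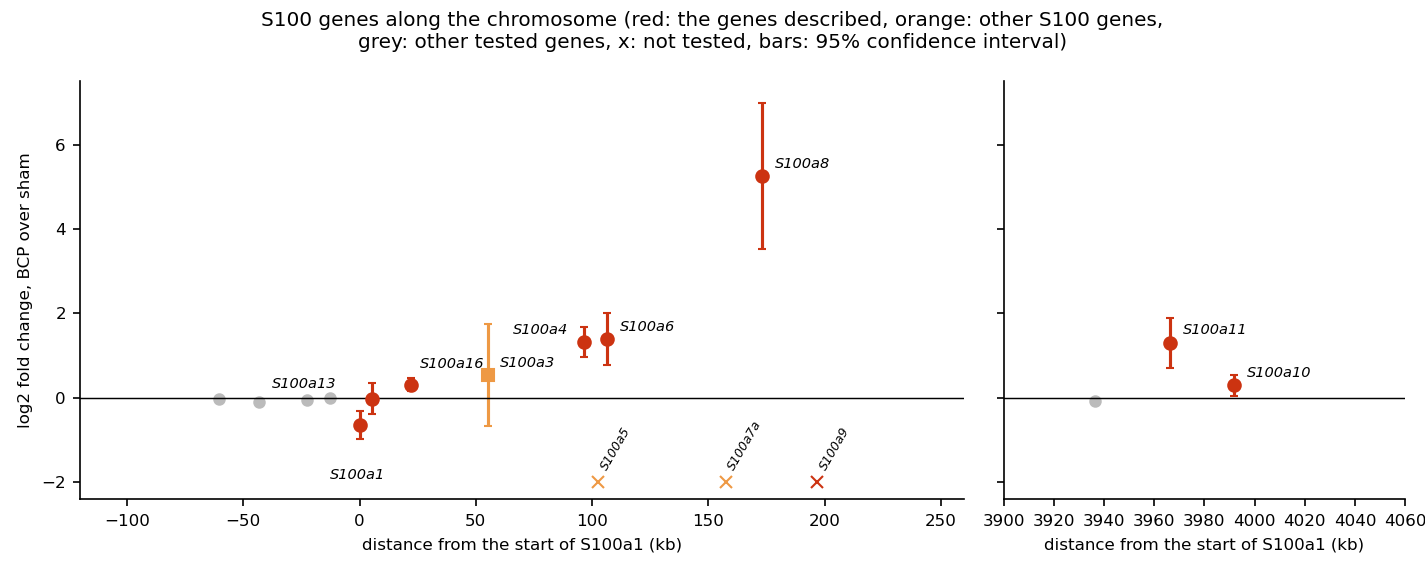
Log2 fold change, BCP over sham, of S100 genes (red and orange) and of other tested genes (grey) against the distance from the start of S100a1 in kb, with 95% confidence intervals, and crosses for S100 genes that were not tested. S100a1 lies below 0 at the left end of the run, S100a4, S100a6 and S100a8 lie above 1 further along, and the few other tested genes inside the plotted window lie close to 0, while genes further off are not plotted.

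Within 1 Mb of the members on chromosome 2 the table held 70 genes outside the family, of which 36 had no counts and 27 were tested. Among them 7 rose (25.9%) and 2 fell (7.41%), where 15.8% of all tested genes rose and 12.1% fell. Their median log2 fold change was 0.06, and only 1, the small GTPase gene Rab13 at 1.09 (SE 0.13), rose more than 2-fold. Within 1 Mb of S100b 20 of 46 genes were tested, 1 rose (5%), 6 fell (30%), and the median was -0.06. Whether these shares differ from those of all tested genes was not tested. Dip2a, a neighbour of S100b, fell by 0.40 on the log2 scale (SE 0.05). Rab13 and Dip2a were chosen after their values were seen.

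To show the starts of genes with changed levels, the 100 bases before the RefSeq start (build GRCr8) are printed for 3 members that rose more than 2-fold and for S100a9. They are 5′ to 3′ on the gene's strand, and capitals mark TATAAA, the TATA box, and a form of the NF-kB site (GGGA, any 4 bases, CC), on either strand. Starts were given for 7 of the 10 members, not for S100a1, S100a8 and S100a10. The windows lie at chr2:178388429-178388528 (+ strand) for S100a4, chr2:178398437-178398536 (+ strand) for S100a6, chr2:181875032-181875131 (+ strand) for S100a11 and chr2:178490623-178490722 (- strand) for S100a9.
S100a4: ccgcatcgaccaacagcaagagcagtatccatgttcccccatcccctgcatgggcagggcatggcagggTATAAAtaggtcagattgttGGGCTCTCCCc
S100a6: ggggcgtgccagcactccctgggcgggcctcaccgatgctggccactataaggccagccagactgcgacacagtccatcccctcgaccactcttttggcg
S100a11: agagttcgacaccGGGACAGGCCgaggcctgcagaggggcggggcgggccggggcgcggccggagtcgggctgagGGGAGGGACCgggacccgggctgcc
S100a9: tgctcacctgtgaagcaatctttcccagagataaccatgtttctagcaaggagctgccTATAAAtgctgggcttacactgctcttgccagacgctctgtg
In windows of 300 bases around the start, 250 before and 50 after, TATAAA was in 2 of 7 members, S100a4 and S100a9, and in 14.2% of all 33365 windows, on either strand. In S100a4 it began 31 bases before the start and in S100a9 42 bases before it. The NF-kB form was in 3 of 7, S100a4, S100a6 and S100a11, and in 19.3% of all windows, and the match of S100a6 lies past the start, outside the bases printed. GAGGAA, the core bound by PU.1, was in S100a4, S100a9 and S100b and in 27.6% of all windows. TTGCNNAA (C/EBP), TGANTCA (AP-1) and TTCNNNGAA (STAT) were in none of the 7 and in 10.6%, 7.34% and 8.88% of all windows. No printed match overlapped another, and a match describes letters, not binding.

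The receptors for secreted S100 proteins moved unequally. Of 6 tested genes 2 rose and none fell (edgeR). Tlr4, the receptor for calprotectin, was at 7.32, 7.26 and 7.77 CPM in sham and at 21.1, 18.8 and 26.6 CPM in BCP libraries, a log2 fold change of 1.57 (SE 0.14, adjusted p = 2.92e-08 with edgeR). Its co-receptor gene Cd14 rose by a log2 fold change of 1.60 (SE 0.25). Ager, which encodes RAGE, was at 3.58, 3.77 and 4.05 CPM in sham and at 4.40, 4.72 and 2.88 CPM in BCP libraries, with overlap, and its log2 fold change was 0.07 (interval -0.40 to 0.54, adjusted p = 0.860 with edgeR).

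Among the annexins and Ahnak, listed as partners of S100 proteins, 3 of 5 tested genes rose and none fell. Anxa1, the partner of S100a11, was at 1.53, 0.419 and 1.35 CPM in sham and at 4.82, 4.93 and 4.32 CPM in BCP libraries, a log2 fold change of 2.09 (SE 0.31, adjusted p = 3.72e-05 with edgeR). It reached the level of the filter in all BCP libraries and in 2 of 3 sham libraries. Ahnak, the large scaffold protein, rose by 0.23 (SE 0.06), and Anxa11 by 0.25 (SE 0.08). Anxa2, the partner of S100a10, was at 58.0 ± 6.56 and 59.9 ± 1.72 CPM, a log2 fold change of 0.05 (interval -0.11 to 0.21, adjusted p = 0.714 with edgeR).

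Of 4 tested cargo genes of S100a10, channels and serotonin receptors, none rose and 2 fell, the potassium channel gene Kcnk3 by 0.25 (SE 0.08) and the acid-sensing channel gene Asic1 by 0.19 (SE 0.07) on the log2 scale. Scn10a, the sodium channel of nociceptors, was not tested, with 10, 4 and 8 counts in sham and 1, 1 and 7 in BCP libraries, and Trpv5 had no counts. In the plasminogen system, where S100a10 acts as a receptor, 2 of 4 tested genes rose and none fell. Plau, the urokinase gene, rose from 0.447 ± 0.218 to 2.37 ± 0.510 CPM (log2 fold change 2.37, SE 0.39), and it passed the filter on low counts only through its BCP libraries. Plaur, the urokinase receptor gene, had 0, 2 and 0 counts in sham and 10, 5 and 9 in BCP libraries and was not tested.

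Of 12 tested genes for other intracellular targets 2 rose and 7 fell, with a median log2 fold change of -0.15. Hltf, a chromatin remodeller, was 1 of those that rose, by 0.20 on the log2 scale (SE 0.07). Ryr1, a ryanodine receptor on which S100a1 acts, was at 11.1 ± 0.424 CPM in sham and 6.18 ± 2.38 CPM in BCP cord. It fell by 0.87 on the log2 scale (SE 0.22), the largest fall in the list. Ryr2, at 462 ± 22.0 and 409 ± 9.31 CPM, fell by 0.18 (SE 0.05). The calcium pump gene Atp2a2, at 1236 ± 40.0 and 1115 ± 23.2 CPM, fell by 0.15 (SE 0.04). Myh9, the nonmuscle myosin gene of most cell types, was listed at 0 in every library. Il1a, whose product S100a13 helps export, had 5, 3 and 2 counts in sham and 8, 19 and 16 in BCP libraries and was not tested.

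Long noncoding RNAs (lncRNAs) within 10 kb of the members numbered 10, of which 8 were tested in the lncRNA table. None rose or fell in edgeR's quasi-likelihood test with Benjamini-Hochberg adjustment, where 1.57% of 12157 tested lncRNAs rose and 0.395% fell, and 3 had an unadjusted p under 0.05. The 3 with the most counts were NONRATT017297.2 beside S100b (log2 fold change -0.28, SE 0.09), NONRATT017682.2 overlapping S100b (-0.18, SE 0.09) and NONRATT016623.2 spanning S100a1 (-0.49, SE 0.13), with adjusted p of 0.193, 0.454 and 0.118. NONRATT016627.2, chosen after its values were seen, spans S100a11 and had 23, 32 and 26 counts in sham and 35, 101 and 76 in BCP libraries, with the same order of BCP libraries as S100a11. Its log2 fold change was 1.51 (SE 0.34, adjusted p = 0.0779). Since the use of strand in counting is not given in the sources used here, reads of overlapping lncRNAs and S100 genes cannot be told apart.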

How the data were processed

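RNA of 3 sham and 3 BCP samples was used, grouped by the labels. The authors trimmed reads with Seqtk, and the submitters' processing notes name HISAT2 2.0.4, StringTie 1.3.0 and the build Rnor_6.0. They deposited raw counts per gene and per lncRNA, with FPKM values calculated by the authors beside them, while the counting program, whether it used strand and how it treated reads with several locations are not given in the sources used here. Reads of near-identical copies may be split by such counting.

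Counts were tested in edgeR 4.0.16 (R 4.3.3) with filterByExpr, TMM and a robust quasi-likelihood fit on condition, genes and lncRNAs apart, with Benjamini-Hochberg adjustment over each table, a threshold of 0.05, and a prior count of 0.125 for fitted fold changes. The second threshold was an absolute log2 fold change over 1. SE was the absolute log2 fold change divided by the square root of F. FPKM values were summarised without a test. TMM factors were 0.982 to 1.02. The members and lists were chosen with earlier results of these data known. Named genes were all members, other S100 rows with counts, fixed names from the pathway lists and their genes past both thresholds, the 5 EF-hand genes with the smallest p, and the 3 lncRNAs with the most counts, since none passed. Kcnk3, Asic1, Trpv5, Anxa11, Plaur, Ryr1, Ryr2, Atp2a2, Hltf, Myh9 and Il1a were named outside these rules, with their values known. The values of some listed genes are not reported here. Alternatives were DESeq2 1.42.0, other filters and scalings, a likelihood ratio test, a replicate block and each library left out. The code was tested on simulated counts, where the share of false calls stayed within its nominal level for genes and exceeded it for lncRNAs. Far fewer genes were changed there than were called in these data, and by more than most members, so smaller changes were not covered. Figures were drawn with matplotlib 3.10.9.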

Additional observations from a re-analysis of the deposited data

How the results depend on the processing

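Over 13 alternatives the number of S100 genes that rose lay between 4 and 7, the number that rose more than 2-fold between 3 and 5, and the number that fell was 2 in each. S100a9 was tested in 5 of them, without a filter, without each sham replicate and without BCP replicate 2, and rose in each, at a log2 fold change of 2.29 to 3.43. The directions and calls of S100a1, S100a4, S100a6, S100a11, S100a16 and S100b were the same in all 13, and those of S100a8 in the 12 that tested it, with a log2 fold change of 4.77 to 7.09. With at least 10 counts in every library S100a8 was not tested. S100a10 passed the threshold with library size only (log2 fold change 0.34, adjusted p = 0.0384 with edgeR), with a replicate block (0.29, adjusted p = 0.0441), without sham replicate 1 (0.38, adjusted p = 0.0378) and without BCP replicate 3 (0.41, adjusted p = 0.0114), and its adjusted p ranged from 0.0114 to 0.321. S100a13 turned from -0.03 to 0.0151 with library size only, to 0.14 without sham replicate 3 and to 0.02 without BCP replicate 3, lay between -0.17 and 0.14 over the libraries left out, and passed in no alternative. The number of lncRNAs near the members that passed was 0 to 1 over the libraries left out, and the 1, NONRATT016627.2 over S100a11, passed without BCP replicate 1. Alternatives for lncRNAs with a replicate block or a library left out were chosen after seeing the data. With the replicate block, 6 S100 genes rose and 2 fell, and no other call of an S100 gene changed than that of S100a10. Same-numbered samples correlated in their deviations at -0.11, 0.04 and -0.04, none over 0.1, so the numbers were not taken to pair the samples. Depth limits S100a8, S100a9 and S100a6 most, with at most 24 counts in a sham library.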

Other observations

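Other calcium-binding genes with EF hands were examined beside the S100 genes. Of 26 listed genes 25 were tested, 3 rose, 3 fell (edgeR), and the median log2 fold change was -0.08. Aif1, the microglial protein IBA, was at 11.4, 7.61 and 9.73 CPM in sham and at 46.5, 48.9 and 56.2 CPM in BCP libraries, a log2 fold change of 2.40 (SE 0.12, adjusted p = 2.63e-10 with edgeR). Lcp1, the leukocyte actin-bundling protein plastin, rose from 88.9 ± 6.27 to 253 ± 30.8 CPM, a log2 fold change of 1.51 (SE 0.10). Efhd2, an actin-binding protein of immune cells and neurons, rose by 0.43 (SE 0.06). Ncs1, a neuronal calcium sensor, fell by 0.25 (SE 0.04), Efhd1, a mitochondrial protein, by 0.33 (SE 0.07), and Hpcal1, a visinin-like sensor, by 0.22 (SE 0.06) on the log2 scale. Hpcal1, outside the rule for named genes, was chosen after its values were seen.

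In the annotation deposited with the gene table, all 10 S100 genes carried the term calcium ion binding. Of 626 genes with that term 464 were tested, 55 rose (11.9%) and 100 fell (21.6%), with a median log2 fold change of -0.09, where 15.8% of all tested genes rose and 12.1% fell. The S100 genes are among them, and whether they stand apart from the rest of the term was not tested.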
